A study of Mus musculus with 6 samples.

Results

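Collagens are the main proteins of the extracellular matrix, and the accessible chromatin around their genes was examined in NMuMG cells, a mouse mammary epithelial line, with and without TGFβ1. The family was taken as all protein-coding genes of the GENCODE vM1 annotation on mm9 whose symbol is Col, a number, a and a number. This gave 43 of 22380 protein-coding genes. A region was counted for a gene when it lay within 1000 bp of the 5′ end of any of its transcripts (a start site region), elsewhere in the gene body, or within 50 kb of the 5′ end of the gene. The union of the peak lists held 39435 regions, of which 166 were in reach of a collagen gene, and 9 of these were in reach of more than 1 of them.

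Collagen chains assemble into trimers that build fibrils, the sheet-like network of basement membranes, beaded filaments, anchoring fibrils and smaller assemblies. Epithelial cells rest on a basement membrane, whose network is made of type IV collagen, and fibril-forming collagens are typical products of mesenchymal cells. TGFβ is known to drive the expression of matrix genes in many cell types and to induce epithelial to mesenchymal transition in NMuMG cells.

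ATAC-seq, which uses the transposase Tn5 to tag accessible DNA, was applied to cells kept for 6 h without serum and then given vehicle for 2 h, or 5 ng/ml of TGFβ1 for either 2 h or 12 h. The vehicle was a dilute acid or buffer with BSA, which the labels name in different ways. Each condition had 2 biological replicates, and the authors reduced them to 1 list of reproducible peaks per condition. No vehicle list of 12 h was used here, so the 12 h cells also differed from the vehicle cells in time without serum, and these cannot be told apart.

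A list has no value per replicate and no read counts. The depth behind a region is therefore unknown, no spread between replicates could be set against a difference between lists, and no test between conditions was run. Absence from a list says only that no peak there passed the authors' criteria, and not that the DNA was closed. The lists held 16765 vehicle regions, 32548 at 2 h and 33079 at 12 h after intervals under 150 bp were dropped and gaps under 1000 bp were closed. Shares have 95% Wilson intervals, which cover counting error only, and neither regions nor genes of a family are independent. Of 10 epithelial marker genes, 5, 6 and 6 had a start site region in vehicle, at 2 h and at 12 h. Krt8, Krt18 and Krt19 were among them in each list, Cdh1 was in both TGFβ1 lists without vehicle, and Epcam, Esrp1, Cldn7 and Ovol1 had none in any list. None of 5 leukocyte and 4 endothelial markers had such a region in any list, and of 5 fibroblast markers Pdgfra had one in each list.

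Few collagen genes had a listed region at a start site in vehicle cells. Most of those with one in a TGFβ1 list had none in the vehicle list. In vehicle, a start site region was found at 3 of 43 collagen genes (6.98%, 2.4 to 18.6), namely Col1a1, Col15a1 and Col18a1. The share among all protein-coding genes was 41.8%. At 2 h the number was 10 of 43 (23.3%, 13.2 to 37.7) against 47.8% of all genes. At 12 h it was again 10 of 43, against 47.6% of all genes. The collagen family thus lay below the genes at large in each list, with intervals that did not reach the share of all genes.

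A start site region in a TGFβ1 list and none in vehicle was found at 8 of 43 collagen genes (18.6%, 9.74 to 32.6), compared with 7.54% of all protein-coding genes. These were Col4a1, Col4a2, Col5a1, Col6a2, Col6a3, Col7a1, Col12a1 and Col27a1. Col4a1 and Col4a2 share their region. Only genes without such a region in vehicle could enter this group, and collagen genes were more often without one. Among the 40 collagen genes without a vehicle start site region, 20% had one in a TGFβ1 list (10.5 to 34.8), and among the 13028 genes of this kind in the whole annotation 12.9% did, a value inside the collagen interval. With the TGFβ1 lists shortened to the length of the vehicle list by keeping their widest intervals, 6 collagen genes remained in this group, and the share of all genes was 4.82%. With only the intervals at least as wide as the median of their own list, 7 of 43 collagen genes were in this group (16.3%), compared with 13.5% of all genes, so the distance to the genes at large was smaller there.

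The rule of 1000 bp accepts internal transcripts, and a stricter view gave the same order of the lists. The 5′ end of the gene itself lay inside a region for 1 of 43 collagen genes in vehicle, Col18a1, and for 6 of 43 at 2 h and 6 of 43 at 12 h (14%, 6.56 to 27.3, in both). Over all genes these shares were 35.9%, 41.4% and 41.5%. The 6 genes at 2 h were Col4a1, Col4a2, Col6a2, Col7a1, Col12a1 and Col18a1. At 12 h Col5a1 stood in place of Col6a2. With a limit of 2500 bp in place of 1000 bp, 6 collagen genes had a start site region in vehicle, 14 at 2 h and 14 at 12 h, and over all genes the shares were 43.3%, 50% and 50.1%.

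**Figure D1:**
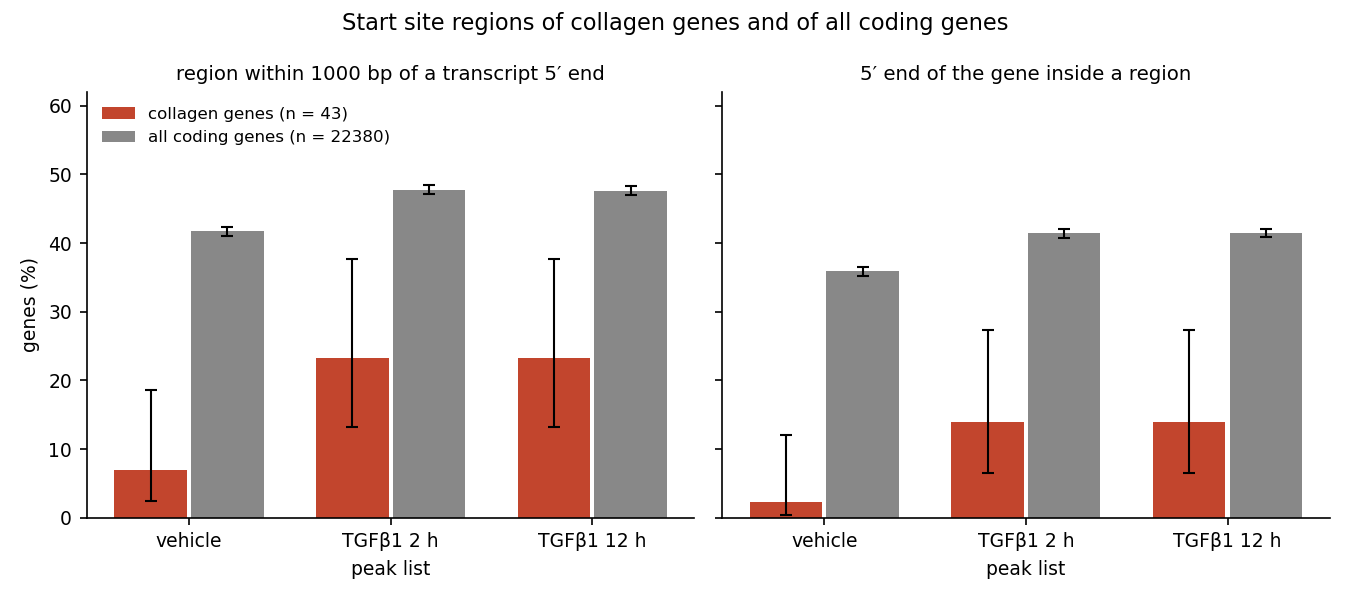
Share of genes (%, vertical axis) with a region within 1000 bp of a transcript 5′ end (left) and with the 5′ end of the gene inside a region (right) in each peak list. Red bars are the 43 collagen genes, grey bars all 22380 protein-coding genes, and black lines 95% Wilson intervals (counting error only); the collagen bars are at 6.98%, 23.3% and 23.3% on the left and lie below the grey bars in each list.

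The DNA just upstream of 3 of these genes is shown because it lies in the regions that the lists disagree on, with Col18a1 as the contrast that was present in each list. Each stretch covers the 250 bases before the annotated 5′ end of the gene on NCBIM37 (mm9), 5′ to 3′ on the strand of the gene. Capitals mark the letters GGGCGG or CCGCCC (the GC box, bound by Sp family factors) and CCAAT or ATTGG (the CCAAT box, bound by NF-Y). The stretches are Col7a1 at chr9:108855381-108855630 on the plus strand, Col5a1 at chr2:27741695-27741944 on the plus strand and Col18a1 at chr10:76629294-76629543 on the minus strand.
Col7a1: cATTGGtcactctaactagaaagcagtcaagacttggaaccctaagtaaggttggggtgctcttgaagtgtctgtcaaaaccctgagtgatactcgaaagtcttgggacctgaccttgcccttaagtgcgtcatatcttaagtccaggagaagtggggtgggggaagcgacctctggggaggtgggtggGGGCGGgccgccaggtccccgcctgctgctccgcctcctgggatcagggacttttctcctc
Col5a1: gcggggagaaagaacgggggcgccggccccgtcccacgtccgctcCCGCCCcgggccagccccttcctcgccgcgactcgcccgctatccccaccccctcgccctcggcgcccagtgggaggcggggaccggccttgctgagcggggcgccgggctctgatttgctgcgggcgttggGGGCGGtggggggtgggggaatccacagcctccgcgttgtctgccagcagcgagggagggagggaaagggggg
Col18a1: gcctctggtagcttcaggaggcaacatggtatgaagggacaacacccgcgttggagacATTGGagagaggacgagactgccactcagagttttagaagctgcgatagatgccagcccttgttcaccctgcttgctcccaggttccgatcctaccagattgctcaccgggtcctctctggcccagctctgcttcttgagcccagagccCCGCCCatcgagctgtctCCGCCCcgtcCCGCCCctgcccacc

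None of the 250 bases of Col7a1 and Col5a1 lay in a vehicle region. For Col7a1, 250 lay in a region at 2 h and 250 at 12 h. For Col5a1, 0 lay in a region at 2 h and 250 at 12 h. For Col18a1 the numbers were 250 in vehicle, 209 at 2 h and 250 at 12 h. A GC box was found in the 250 bases upstream of 22 of 43 collagen genes (51.2%), compared with 39.6% of 22377 protein-coding genes, and a CCAAT box at 17 of 43 (39.5%), compared with 35%. The letters TATAAA or TTTATA (the TATA box) were found at 5 of 43 (11.6%), compared with 12.3%. These are matches of letters on both strands and not mapped binding sites.

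Collagen start sites were poorer in CpG than those of the genes at large. The ratio of observed to expected CpG in the 1000 bp around the 5′ end had a median of 0.44 in the 43 collagen genes and 0.55 over all genes. It exceeded 0.6, a usual mark of CpG islands, in 12 of 43 collagen genes (27.9%) and in 45.6% of all genes. Among the 11 collagen genes with a start site region in any list the median was 0.73, and 6 of 11 exceeded 0.6 (54.5%). Over all genes with such a region the median was 0.74, and 74.6% exceeded 0.6. Among the other 32 collagen genes the median was 0.40, and 6 of 32 did (18.8%). Over all genes without such a region the median was 0.26, and 17.4% did. A split by listed region was thus also seen over all genes. Col13a1, Col19a1, Col23a1 and Col25a1, with ratios of 0.75, 0.72, 0.88 and 0.69, were among the 32 collagen genes without a start site region. A high ratio thus occurred without a listed region.

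The basement membrane network was represented at its start by the pair Col4a1 and Col4a2, which encode the chains of the type IV collagen found in nearly all basement membranes. Both genes are read outwards from a common start, where they overlap and their annotated 5′ ends lie 21 bp apart. The shared region at chr8:11312064-11313283 covered both 5′ ends. It was missing from vehicle and spanned 1220 bp at 2 h and 826 bp at 12 h. The nearest vehicle region was 27505 bp from the 5′ end of Col4a1. The region spans exons on both strands, and its sequence is not shown. The other pairs of the class, which encode the chains of specialised basement membranes such as that of the kidney glomerulus, had no region at their common start. For Col4a4 and Col4a3, with a gap of 72 bp between the 5′ ends, the nearest region was 137820 bp away in the vehicle list, 12154 bp in the 2 h list and 12244 bp in the 12 h list. Col4a6 and Col4a5, whose 5′ ends are 1309 bp apart, just outside the limit set for pairs, had their nearest region at 34217, 34168 and 34074 bp in vehicle, at 2 h and at 12 h. In vehicle, none of the 3 pairs had a region at its start.

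Inside Col4a2 the lists also differed. Col4a2 had 4 regions in reach in vehicle, 9 at 2 h and 10 at 12 h, and Col4a1 had 3, 7 and 7, some of them shared. The 10 union regions of Col4a2 comprised 4 in all 3 lists, 5 in both TGFβ1 lists without vehicle and 1 at 12 h alone. Of the intronic regions nearest to the start, chr8:11322749-11323471 spanned 711 bp at 2 h and 668 bp at 12 h and was not in vehicle, whereas chr8:11340232-11341047 was 286 bp wide in the vehicle list, and its width was 816 bp at 2 h and 811 bp at 12 h. An intronic union region at chr8:11392842-11394035 joined an interval of 215 bp at 2 h with an adjacent interval of 900 bp at 12 h, which did not overlap. Each of the 4 regions present in all lists was wider at 12 h than in vehicle.

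The fibrillar class, 11 genes, held 17 vehicle regions, 30 at 2 h and 35 at 12 h. Its best known members differed from each other. Col1a1, which encodes the main chain of type I collagen, had a start site region in all 3 lists at chr11:94798025-94799244, with a width of 486 bp in the vehicle list, 888 bp in the 2 h list and 1211 bp in the 12 h list. It began 487 bp downstream of the 5′ end of the gene, so the 5′ end itself was in no region. Its score in the vehicle list was 812, and the highest score in that list was 1000. Col1a1 had 7 union regions, and 5 of them were in all 3 lists, among them one 6901 bp upstream that measured 1609, 1725 and 1803 bp.

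Col1a2, which encodes the partner chain of type I collagen, had a single region in reach, an intronic region of 228 bp that began 2605 bp downstream of its 5′ end and was listed at 12 h alone. Col3a1, which encodes type III collagen of skin and vessels, had no region in reach in any list, and its nearest region was 483343 bp away in vehicle and 120465 bp away in both TGFβ1 lists. The genes of the chains that pair in type I collagen thus differed in the number of listed regions in reach, 7 against 1. Of the 7, chr11:94818949-94820204, chr11:94831474-94832206 and chr11:94840205-94840784 lay outside Col1a1. They were nearer to the 5′ ends of other coding genes, namely Gm17329, Hils1 and Sgca.

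Col5a1, whose product controls the diameter of type I fibrils, had a start site region at 12 h alone, 848 bp wide at chr2:27741626-27742473 and covering the 5′ end. It also had an intronic region at chr2:27794875-27795407 that measured 533 bp in vehicle and 421 bp at 2 h and was missing at 12 h. Col5a2 had 1 region in reach, in both TGFβ1 lists without vehicle, and Col5a3 had 3, of which 1 was in all lists. A further region of Col5a1, upstream at chr2:27698229-27698601, was listed at 12 h alone. For Col5a1 the start site region and the intronic region were thus not listed together in any list.

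Col27a1, a fibrillar collagen known from cartilage, had 3 vehicle regions, 7 at 2 h and 7 at 12 h. Its region nearest to the start, chr4:62876253-62878903, began 1215 bp downstream of the 5′ end of the gene at 2 h. At that time it covered the 5′ end of another coding transcript. At 12 h the listed part began 2040 bp downstream and did not cover that 5′ end. The region was a single stretch of 2651 bp at 2 h, the widest collagen region of that list, and at 12 h 2 separate regions that covered 743 bp. Further regions without vehicle counterpart lay at chr4:62944392-62944634, with 185 bp at 2 h and 243 bp at 12 h, and at chr4:62909068-62910361, with 466 and 1286 bp. Of its 7 union regions, 4 were in both TGFβ1 lists without vehicle.

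The remaining fibrillar genes had no start site region. Col24a1 had 6 union regions, of which 3 were in both TGFβ1 lists without vehicle, all in introns. Col11a2 had 6, and 4 of these were in all lists and lay at the starts of other genes, namely H2-K1, Ring1, H2-Ke6 and Rxrb with Slc39a7. Col11a1, which encodes a cartilage collagen, had 2 flanking regions at 12 h alone, and Col2a1, the main cartilage collagen gene, had 1 region in all lists and 1 in both TGFβ1 lists without vehicle.

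Beaded filaments are built from type VI collagen, and the 7 genes of this class held 5 vehicle regions, 20 at 2 h and 19 at 12 h. Col6a2 had a start site region at 2 h alone, 491 bp wide at chr10:76085935-76086425 and covering the 5′ end, while its neighbour Col6a1 had none. Col6a2 had 7 union regions, with 2 in vehicle, 6 at 2 h and 5 at 12 h. Col6a3, which encodes a long type VI chain, had an intronic region at chr1:92699719-92700114 that lay 621 bp from an internal transcript 5′ end, with 246 bp at 2 h and 396 bp at 12 h. Its gene 5′ end was 40415 bp away. Col6a4 and Col6a6 had 1 region each, Col6a1 had 2, and Col6a5 and Col28a1 had 4 each. In vehicle Col6a1, Col6a4 and Col6a6 had none.

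Col7a1, the gene of the anchoring fibrils that tie the basement membrane of stratified epithelia to the tissue below, had a start site region in both TGFβ1 lists. The region at chr9:108854531-108855845 covered the 5′ end, was missing from vehicle, and spanned 541 bp at 2 h and 1315 bp at 12 h. Another region, chr9:108884431-108885060, lay at the 5′ end of an internal transcript not annotated as coding, 28800 bp downstream and measured 246 and 630 bp. The gene body also held chr9:108879864-108880660, with 737 bp at 2 h and 740 bp at 12 h and none in vehicle. The 2 regions of Col7a1 that were in all lists both lay at the starts of neighbours, Uqcrc1 and Pfkfb4, so every listed region within the gene itself was without a vehicle counterpart.

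**Figure D2:**
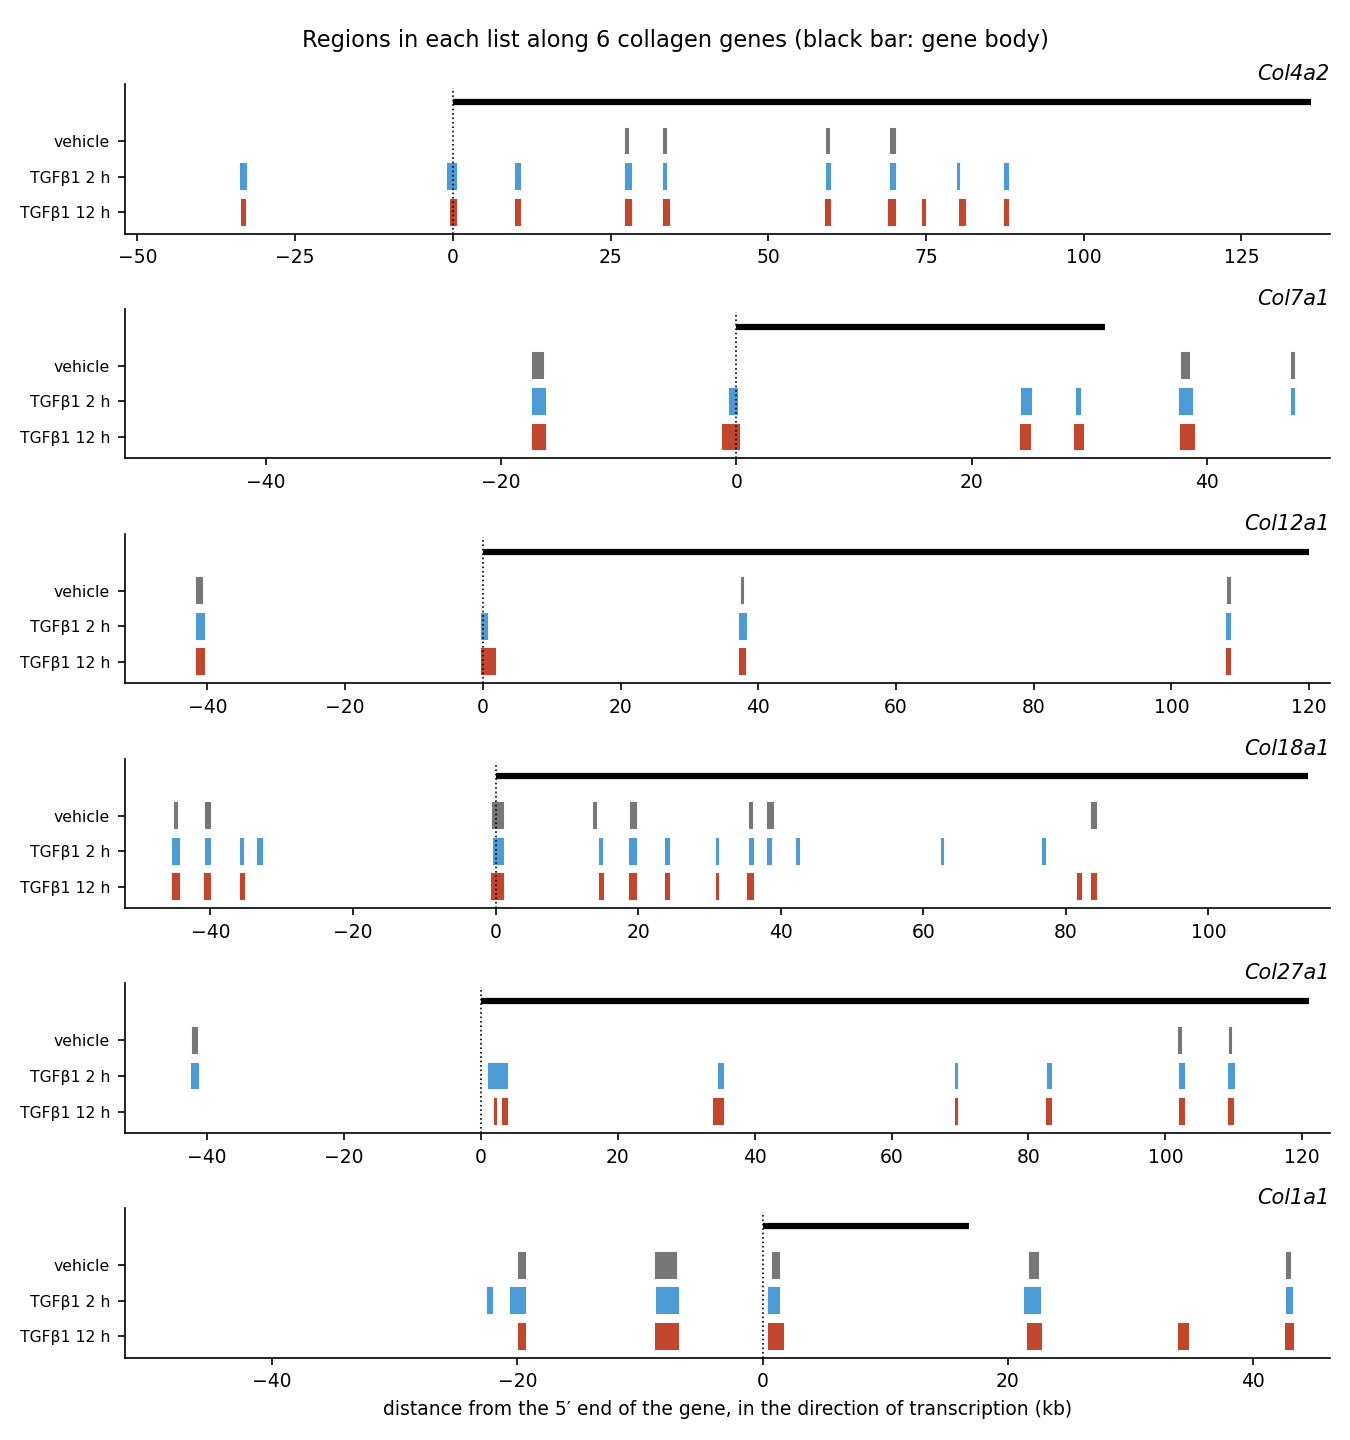
Regions of each list (grey vehicle, blue TGFβ1 2 h, red TGFβ1 12 h) by distance in kb from the 5′ end of 6 collagen genes, in the direction of transcription, with the gene body in black and the 5′ end as a dotted line. At Col4a2, Col7a1 and Col12a1 the dotted line crosses a blue and a red region and no grey one, at Col18a1 it crosses all 3, and at Col1a1 and Col27a1 the nearest regions lie downstream of it.

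FACIT collagens sit on the surface of fibrils, and the 9 genes of this class held 12 vehicle regions, 26 at 2 h and 29 at 12 h. Col12a1 was the only one with a start site region. The region at chr9:79564807-79566746 covered the 5′ end and spanned 677 bp at 2 h and 1929 bp at 12 h, where it reached further into the gene. The other 3 regions of Col12a1 were in all lists. Col14a1, a close relative, had 6 union regions, and the nearest began 1012 bp upstream of the 5′ end, just beyond the limit of 1000 bp. That region was in all lists, with 355 bp in the vehicle list, 210 bp in the 2 h list and 203 bp in the 12 h list. Col22a1 also had 6 union regions and Col16a1 had 5, and in each of them 3 were in both TGFβ1 lists without vehicle. Col9a1, Col9a2, Col9a3, Col19a1 and Col20a1 had 1, 2, 4, 2 and 3 union regions.

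The multiplexins Col15a1 and Col18a1 encode basement membrane collagens that carry sugar side chains, and both were accessible at a start site in all 3 lists. Col18a1, whose product is the precursor of endostatin, was the only family member whose 5′ end lay in a vehicle region. The region at chr10:76628247-76629767 was 1339 bp wide in the vehicle list, and its width was 1250 bp at 2 h and 1521 bp at 12 h, with a vehicle score of 722. Col18a1 also had the most union regions of the family, 16, of which 8 were in vehicle, 14 at 2 h and 11 at 12 h. It thus differed from the other members in its vehicle count, which was at most 5 elsewhere.

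Losses among the collagen union regions were few, and Col18a1 held 2 of the 5. Its intronic region at chr10:76590448-76591075 measured 628 bp in vehicle and 381 bp at 2 h and was missing at 12 h. The region at chr10:76545060-76545650 measured 453 bp in vehicle and 591 bp at 12 h and was missing at 2 h. Missing at 12 h were also the Col5a1 intronic region given above, a region of 176 bp in vehicle and 203 bp at 2 h downstream of Col7a1 (chr9:108902874-108903076), and a region at the start of Kif12 upstream of Col27a1 (chr4:62832819-62833672), with 567 and 854 bp. No region in reach of a collagen gene was in the vehicle list alone, which allows a share of up to 2.26%, and over all union regions this share was 1.16%.

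In Col15a1 both start site regions belonged to internal transcripts. The region at chr4:47270886-47271910 lay 49853 bp downstream of the 5′ end of the gene, at the 5′ end of a transcript not annotated as coding, and was about equally wide in the lists, with 869 bp in the vehicle list, 994 bp in the 2 h list and 1002 bp in the 12 h list. A second region at chr4:47316088-47316782, at the 5′ end of a coding transcript, was missing from vehicle and measured 658 and 645 bp. Col15a1 had 7 union regions, with 3 in vehicle, 5 at 2 h and 7 at 12 h. When start sites were taken from coding transcripts alone, Col15a1 moved from the vehicle group to the genes with a start site region in TGFβ1 lists only, which then numbered 9.

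**Figure D3:**
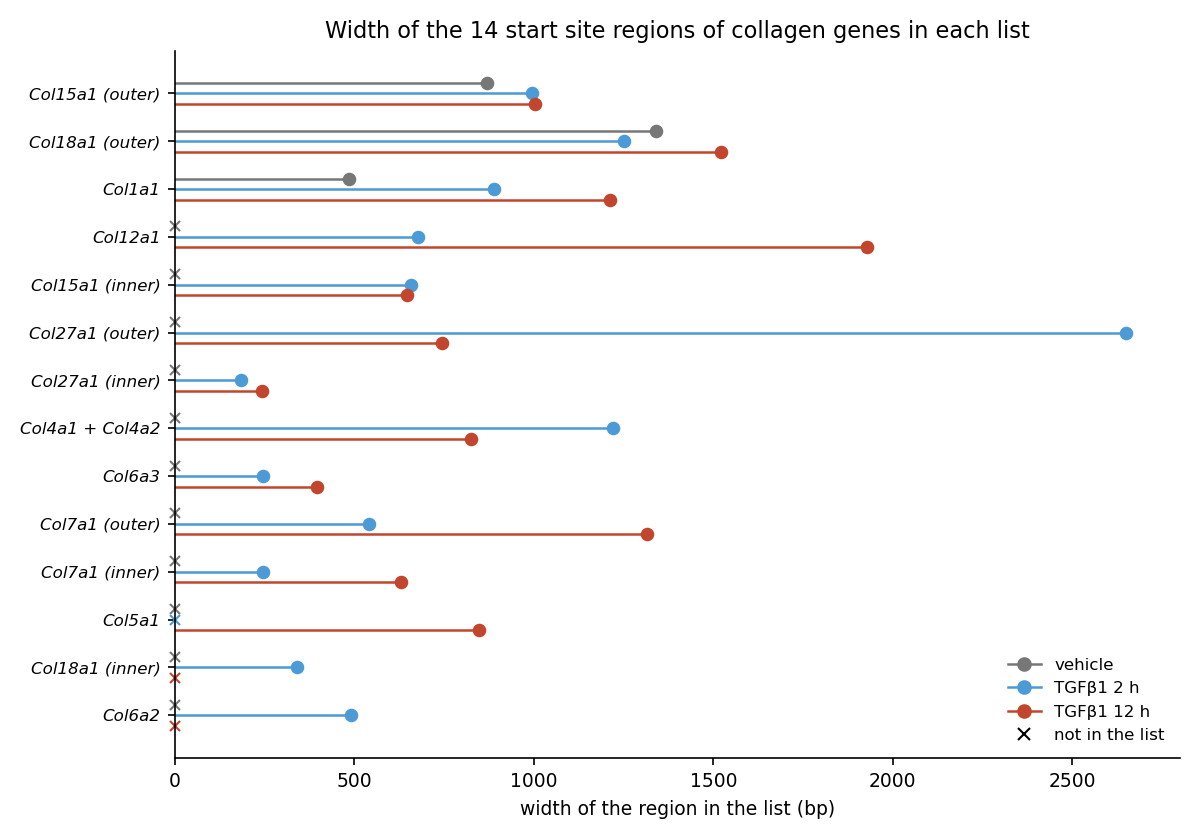
Width in bp (horizontal axis) of the 14 start site regions of collagen genes in each list (grey vehicle, blue TGFβ1 2 h, red TGFβ1 12 h), with a cross at 0 where the region was not in the list. Outer and inner mark the region nearer to and farther from the 5′ end of the gene; 3 regions have a grey point, 8 have a blue and a red point only, and Col5a1, Col6a2 and the inner region of Col18a1 have a single point.

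The transmembrane and short chain classes had no start site region. The transmembrane genes held 4 vehicle regions, 5 at 2 h and 7 at 12 h over 4 genes, and none of their regions was in both TGFβ1 lists without vehicle. Col17a1, which encodes a hemidesmosome protein of epithelia, had 5 union regions, the nearest a region 1759 bp upstream at 2 h alone. Col23a1 had 3, and Col13a1 and Col25a1 had none, although Col25a1 is 419 kb long. The short chain network genes Col8a1, Col8a2 and Col10a1 had 6, 4 and 3 union regions. Those of Col8a1 all lay in introns, with 3 of 6 at 12 h alone, and a region 34147 bp downstream of the Col8a2 5′ end, at the start of Adprhl2, spanned 819 bp at 2 h and 1084 bp at 12 h without a vehicle counterpart.

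Counted by gene, the TGFβ1 lists held more regions in reach for most collagen genes. The 43 genes had a median of 1 region in reach in vehicle, 2 at 2 h and 3 at 12 h. Compared with vehicle, 33 genes had more regions at 2 h (76.7%), 10 had as many and 0 had fewer. Over all protein-coding genes 55% had more and 1.85% fewer. At 12 h 39 collagen genes had more (90.7%), 4 had as many and 0 had fewer, and over all genes 54.2% had more and 3.32% fewer. The reach of a collagen gene was longer than that of most genes, as given below with gene length, and these shares were not matched for it. Between 2 h and 12 h the direction was mixed, with 18 genes with more (41.9%), 18 with as many and 7 with fewer (16.3%), among them Col18a1, Col7a1 and Col6a2, compared with 21.6% and 21.8% of all genes with more and fewer. The number of genes with no region in reach was 13 in vehicle, 6 at 2 h and 4 at 12 h, and 3 genes, Col3a1, Col13a1 and Col25a1, had none in any list (6.98%). Of all protein-coding genes 19.7% had none in any list.

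**Figure D4:**
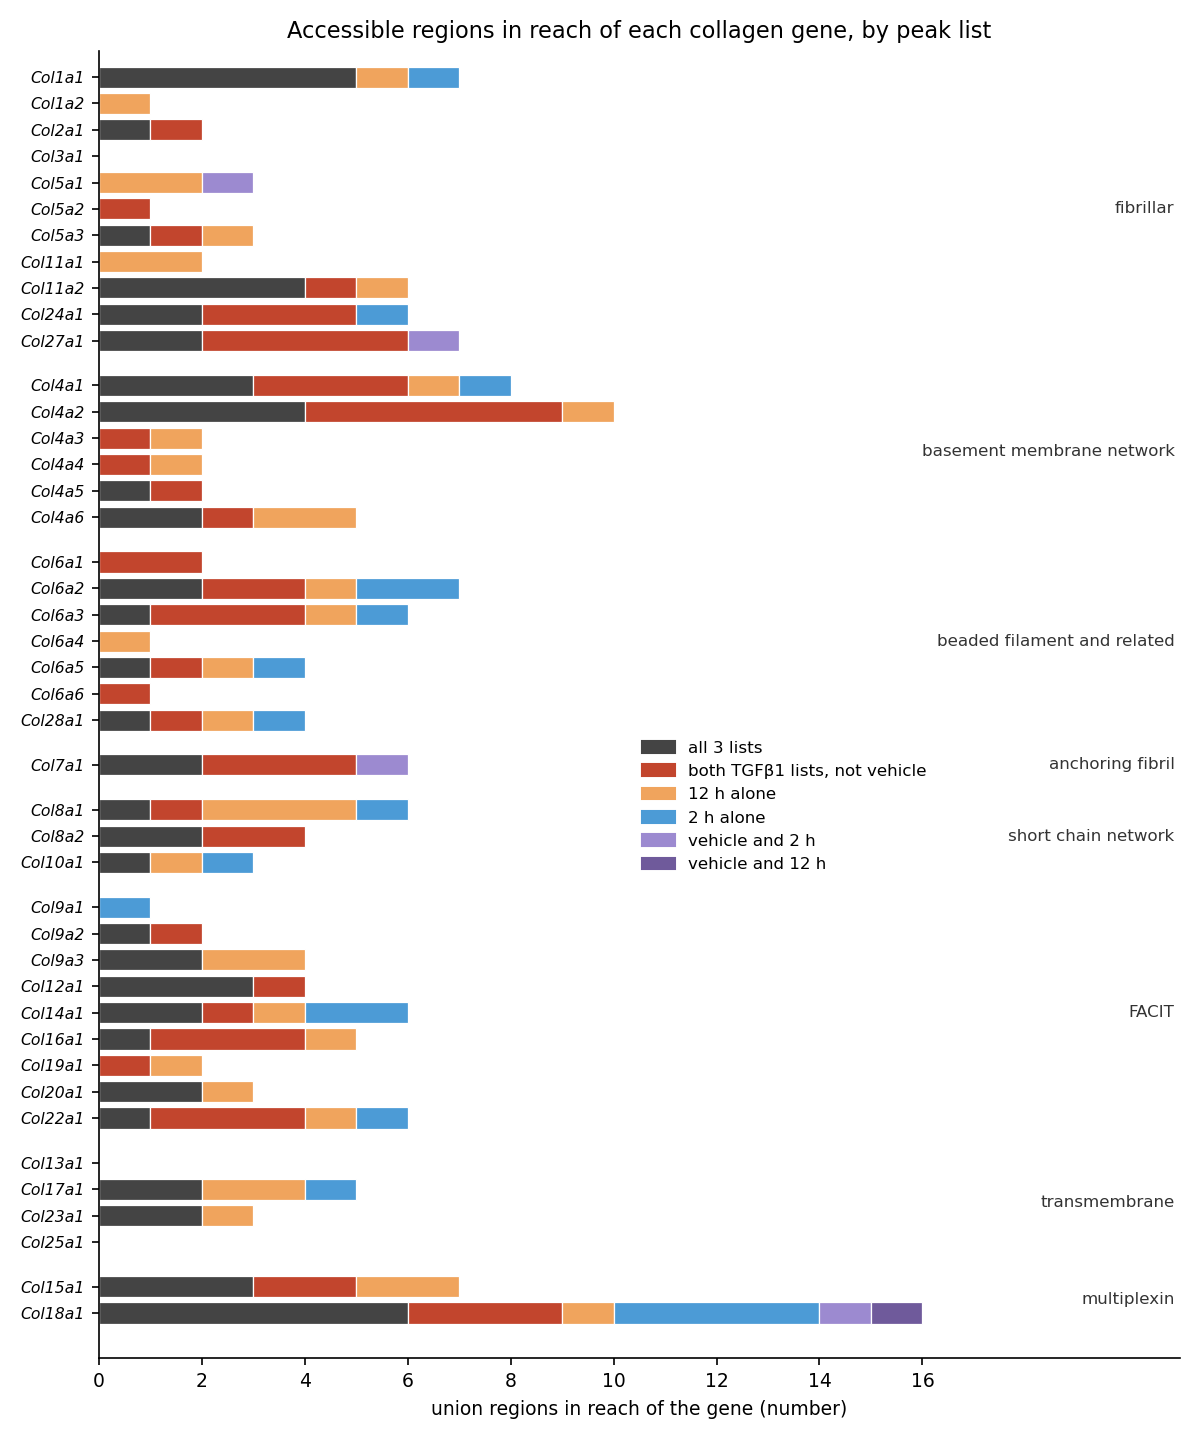
Number of union regions in reach (horizontal axis) of each of the 43 collagen genes, grouped by class, with colours for the lists that held the region; a region in reach of 2 genes is drawn for both. Col18a1 has the longest bar with 16 regions, Col4a2 follows with 10 and Col4a1 with 8, and Col3a1, Col13a1 and Col25a1 have no bar.

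These counts must be read against the lists, which grew alike over the genome. In all, 63 collagen regions were in vehicle, 132 at 2 h and 144 at 12 h, which is 0.376%, 0.406% and 0.435% of the regions of each list. They covered 37445 bp, 83708 bp and 93716 bp, with a mean width of 594, 634 and 651 bp. Of the 166 union regions, 58 were in all 3 lists (34.9%, 28.1 to 42.5), and over all union regions this share was 38.4%. In both TGFβ1 lists without vehicle were 50 (30.1%, 23.7 to 37.5), compared with 28.5%. A list counted as holding a union region when any of its own regions fell in it, so intervals of different lists that lay less than 1000 bp apart could meet in 1 union region without overlap. In another setting, a list counted only when a region of it and the union region overlapped by at least 50% of each. There 22.9% of the collagen regions were in all 3 lists. A narrow list region inside a wide union region failed this rule too, so it does not count regions without overlap. The share over all regions was not computed for it. The 12 h list alone held 34 (20.5%, 15 to 27.3), compared with 16.3%, and the 2 h list alone 19 (11.4%, 7.45 to 17.2), compared with 12.9%. In vehicle and at 2 h were 4 (2.41%), compared with 2.25%, and in vehicle and at 12 h 1 (0.602%), compared with 0.388%. Each of the intervals given included the share over all regions. With only the intervals at least as wide as the median of their list, 27.1% of the collagen regions were in all 3 lists, compared with 37.8% of all regions, and 28.2% were in both TGFβ1 lists without vehicle, compared with 27.5%. With the TGFβ1 lists shortened to the length of the vehicle list, the share in both TGFβ1 lists without vehicle was 10.6% for the collagen genes and 12.6% over all regions.

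By position, the start site regions differed most from their counterparts over the genome. Of the 14 start site regions, 8 were in both TGFβ1 lists without vehicle and 3 in all lists. Of 82 regions elsewhere in gene bodies, of which 73 lay in introns without touching an exon, 28 were in both TGFβ1 lists without vehicle and 21 in all lists. Of 70 flanking regions, 14 and 34 were. For the comparison with all protein-coding genes, each pair of a gene and a union region in its reach was counted, so that a region shared by several genes counted for each. Of 15 collagen start site pairs, 60% were in both TGFβ1 lists without vehicle (35.7 to 80.2), compared with 11.9% over all genes. In all lists were 20% (7.05 to 45.2), compared with 80.2%. The region shared by Col4a1 and Col4a2 counted for both. Collagen genes more often had no vehicle start site region, and these shares were not matched for that. Among genes without one, 20% of collagen genes (10.5 to 34.8) and 12.9% of all genes had one in a TGFβ1 list. For the gene bodies the shares were 34.1% and 34.1% in both TGFβ1 lists without vehicle, and 25.6% (17.4 to 36) and 24.4% in all lists, for collagen and all genes. For the flanks they were 21.8% (14.1 to 32.2) and 23.7%, and 47.4% (36.7 to 58.4) and 48.2%. Flanking regions included the start sites of neighbours, since 23 of the 166 regions lay within 1000 bp of a transcript 5′ end of another protein-coding gene, and 18 of these were among the 58 in all 3 lists. Without any region at a coding start, 129 collagen regions were left, of which 37 were in all lists (28.7%, 21.6 to 37), compared with 23.2% over all regions of this kind. In both TGFβ1 lists without vehicle were 40 (31%, 23.7 to 39.4), compared with 34.5%.

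Vehicle regions that were matched to a single region of a TGFβ1 list were mostly wider there, as over the genome. At 2 h 48 of 61 matched collagen regions were wider than in vehicle (78.7%, 66.9 to 87.1), compared with 82.7% of all matched regions, with a median difference of 150 bp. At 12 h 53 of 58 were wider (91.4%, 81.4 to 96.3), compared with 83.6%, with a median difference of 195 bp and 175 bp over all regions. The largest increase at 12 h was 1165 bp. In vehicle, 23 of 63 collagen regions had the highest score of 1000 (36.5%), while 52.1% of all vehicle regions did.

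Gene length did not order the members. Collagen genes are long, with a median of 114 kb compared with 15.4 kb over all genes, so their reach was longer too. Per 100 kb of reach the median was 2.08 union regions for the collagen genes and 2.62 for all genes. Across the 43 genes, Spearman's rho of length against number of union regions was −0.09, given as a description across genes that are not independent.

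AP-1, the family of Jun and Fos factors, binds TGACTCA and its reverse complement TGAGTCA, and these letters were searched on both strands within the central 500 bp of every region. Stretches with a match anywhere in the region are shown for start site regions of 4 genes, and for Col4a2 as an intronic case without vehicle. The matches of Col27a1 and Col4a2 lay 1071 and 542 bp from the centre of the union region, outside the window searched, and do not count in the shares given next. Each is 67 bases on NCBIM37, 5′ to 3′ on the strand of the gene, with the AP-1 letters in capitals and no exon. They lie at chr9:108855253-108855319 (Col7a1, plus strand), chr4:47316411-47316477 (Col15a1, plus), chr4:62878616-62878682 (Col27a1, plus), chr1:92699864-92699930 (Col6a3, minus) and chr8:11392864-11392930 (Col4a2, plus). All bases of each stretch were in a region at 2 h and none in vehicle, and all were in a region at 12 h except those of Col4a2.
Col7a1: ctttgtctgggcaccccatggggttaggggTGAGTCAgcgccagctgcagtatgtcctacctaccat
Col15a1: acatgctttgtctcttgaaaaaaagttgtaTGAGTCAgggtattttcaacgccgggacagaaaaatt
Col27a1: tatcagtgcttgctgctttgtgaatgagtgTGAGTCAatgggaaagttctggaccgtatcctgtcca
Col6a3: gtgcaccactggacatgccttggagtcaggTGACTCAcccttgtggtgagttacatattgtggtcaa
Col4a2: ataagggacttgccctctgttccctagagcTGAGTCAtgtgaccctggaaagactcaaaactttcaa

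The AP-1 letters were more frequent in the collagen regions as a whole than in regions at large, but not in each group of lists. They were found in 85 of 166 collagen regions (51.2%, 43.7 to 58.7) and in 35.6% of all union regions. In both TGFβ1 lists without vehicle the numbers were 33 of 50 (66%, 52.2 to 77.6) and 47.3%, and in all 3 lists 27 of 58 (46.6%, 34.3 to 59.2) and 24.4%. At 12 h alone they were 15 of 34 (44.1%, 28.9 to 60.5) and 47.6%. The letters were less common at gene starts, so the regions at no coding start were also counted. There the share was 74 of 129 (57.4%, 48.7 to 65.6) for the collagen genes and 45.6% over all regions, with 24 of 37 in all lists (64.9%, 48.8 to 78.2), compared with 47.4%. In both TGFβ1 lists without vehicle 26 of 40 held them (65%, 49.5 to 77.9), compared with 51.4%, a value inside the collagen interval. At 12 h alone the shares were 48.4% (32 to 65.2) and 49.1%. In the 250 bases upstream of the 5′ ends, AP-1 letters were found at 0 of 43 collagen genes and at 3.85% of all genes.

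**Figure D5:**
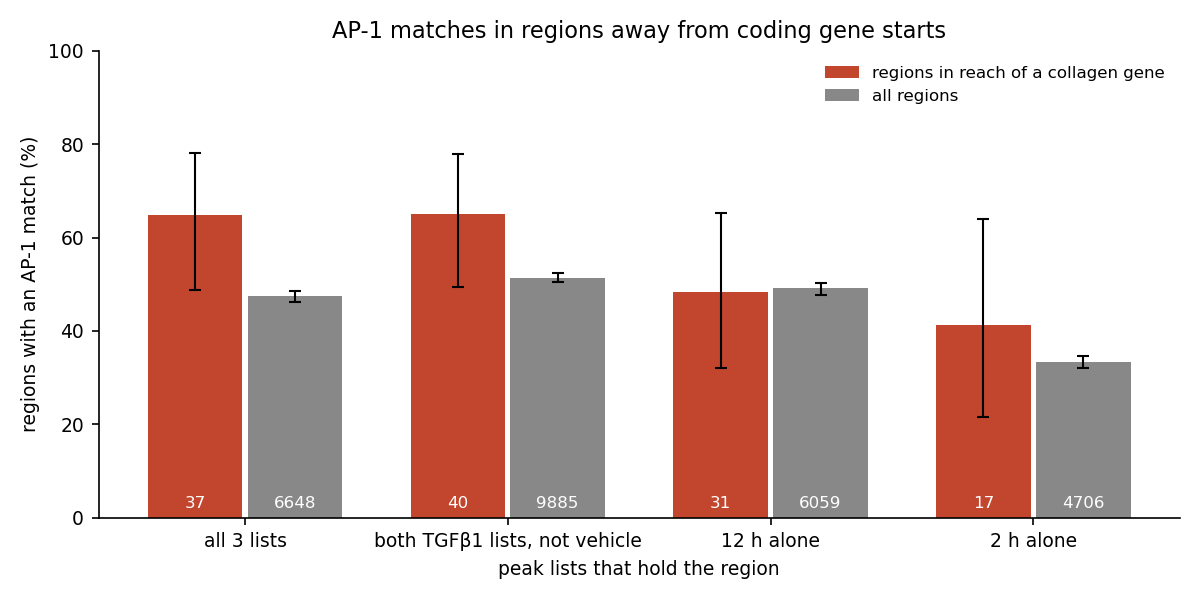
Share of regions (%, vertical axis) with an AP-1 match in the central 500 bp, by the lists that held the region, for regions at no coding gene start. Red bars are regions in reach of a collagen gene, grey bars all such regions, numbers in the bars are regions, and black lines are 95% Wilson intervals (counting error only); the collagen share is 64.9% in all 3 lists, 65% in both TGFβ1 lists without vehicle and 48.4% at 12 h alone, beside grey bars at 47.4%, 51.4% and 49.1%.

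The letters GTCTAGAC, the palindrome bound by SMAD3 and SMAD4, were rare. They were found in 1 of 166 collagen regions and in 0.819% of all union regions. The region lay upstream of Col2a1, at chr15:97879393-97880126, and spanned 734 bp at 2 h and 674 bp at 12 h without a vehicle counterpart. The stretch at chr15:97879960-97880027, on the minus strand of NCBIM37 as is the gene, is shown with the palindrome in capitals.
Col2a1: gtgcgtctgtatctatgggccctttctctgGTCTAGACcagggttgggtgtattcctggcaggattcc

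Genes that act on collagen after its synthesis are given for comparison, from lists of 19 genes of biosynthesis and secretion, 12 of processing and crosslinking and 10 receptors. Most biosynthesis genes had a start site region already in vehicle, 14 of 19, and 16 did at 2 h and 16 at 12 h. The 2 that joined were Serpinh1, the collagen chaperone, with 622 bp at 2 h and 686 bp at 12 h, and P4ha2, a subunit of prolyl 4-hydroxylase, with 1544 and 1324 bp. Of the processing genes 3 of 12 had a start site region in vehicle, 6 at 2 h and 7 at 12 h. Those without one in vehicle were Bmp1, which cleaves procollagen C-propeptides (844 and 797 bp), Pcolce2, a relative of the protein that enhances this cleavage (2859 and 2654 bp), the lysyl oxidase Loxl4 (951 and 841 bp) and Adamts14, which cleaves N-propeptides (202 bp at 12 h alone). Of the receptors, Ddr1, Itga1, Itga2 and Itgb1 had a start site region in each list and none joined. In vehicle, start site regions were thus found at 3 of 43 structural genes and 14 of 19 biosynthesis genes. They were found at 3 of 12 processing genes and 4 of 10 receptors. Over all protein-coding genes the share was 41.8% in vehicle, 47.8% at 2 h and 47.6% at 12 h. A start site region in a TGFβ1 list and none in vehicle was found at 2 of 19, 4 of 12 and 0 of 10, compared with 7.54% of all genes. Only genes without such a region in vehicle could enter this group, and among all genes of this kind the share was 12.9%. The gene lists differed in how many genes lacked one, and these shares were not matched for that.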

How the data were processed

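ATAC-seq was performed in NMuMG cells in 3 conditions with 2 replicates each. The authors ran the ENCODE ATAC-seq pipeline on mm9, called peaks with MACS2 2.1.2 and kept peaks reproducible between both replicates (IDR), and deposited 1 list of peak positions per condition. A score in the vehicle list was deposited too, and no source used here gives its scale. In the TGFβ1 lists that column numbers the lines and was not used. The other 3 samples have no list of their own here. Distinct intervals of 150 bp or more were merged over gaps under 1000 bp, within lists and then over lists, and assigned to genes of GENCODE vM1. Sequences and motif matches were read from NCBIM37, the build of the lists; a promoter table of another build was not used. No test between conditions was run. Shares have 95% Wilson intervals.

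The members, the gene lists and the choice of results were made with earlier results of these data known. Named were every member with a start site region, the members with most regions (4 tied for the last place), head-to-head pairs, the 5 regions in both TGFβ1 lists without vehicle that were widest at 12 h, and regions that were lost. All other members were named by class. Col4a6 with Col4a5, single regions of other members and the Col2a1 palindrome were chosen after their values were seen. Code for intervals was tested on simulated data. Python 3.11.15, numpy 2.4.6, scipy 1.17.1 and matplotlib 3.10.9 were used. The alternatives changed merging, width, list length, overlap, start sites and reach.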

Additional observations from a re-analysis of the deposited data

How the results depend on the processing

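Across the alternatives, 72 of the recomputed values stayed within 1.5 times the value reported for a count, or within its Wilson interval for a share and 15 moved further. Keeping only intervals at least as wide as the median of their list left 26 collagen regions in the vehicle list, 60 in the 2 h list and 69 in the 12 h list, and a share in all 3 lists of 27.1%, compared with 37.8% of all union regions. The fall in counts follows from the smaller number of intervals, and the cause of the lower share was not tested. With the TGFβ1 lists shortened to their widest intervals there were 59 regions at 2 h and 69 at 12 h, compared with 63 in vehicle. This setting gives each list as many intervals as the vehicle list, so an excess that comes from longer lists cannot appear in it. In both TGFβ1 lists without vehicle were 10.6% of the collagen regions, compared with 12.6% of all union regions. A reciprocal overlap of 50% between a list region and the union region gave 22.9% in all 3 lists. A start site limit of 2500 bp gave 6 collagen genes in vehicle. A reach of 20 kb gave 41 regions in vehicle, and a reach of 100 kb gave 112, 199 and 218 regions. Counting only regions that overlapped a collagen gene or whose nearest coding gene was one gave 39 regions in vehicle and 27.7% in all 3 lists. The number of collagen genes with a start site region in a TGFβ1 list and none in vehicle, an addition made after seeing the data, ran from 6 to 11. No paired analysis was possible because each list combines both replicates of a condition, and for the same reason no replicate could be left out and no replicate block was run. Depth per region is unknown.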
